A study of Bos taurus with 18 samples.

Results

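Sperm DNA methylomes of 6 Holstein bulls were compared by sire conception rate (SCR), 3 bulls labelled high (H01, H02 and H03) and 3 labelled low (L01, L02 and L03). The members were all autosomal CpG positions that the files listed in at least 2 bulls of each group, with 1 value per bull. They came to 2127894 positions of the 25673950 listed in any of the 6 bulls and of the 39985997 listed in any of the 18 bulls of the series. Only 310795 of them were listed in all 6 bulls. These positions were also joined into 2000-bp tiles, of which 555193 held a qualifying position and 186426 held one in every bull and could be tested.

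SCR is a dairy industry evaluation of how well cows conceive to a bull's semen. In mammals, cytosine methylation at CpG dinucleotides is laid down afresh in male germ cells, so that mature sperm DNA is methylated over most of the genome and largely unmethylated at CpG islands and many promoters. Whole-genome bisulfite sequencing reads it base by base: unmethylated cytosines are converted and read as thymine, and methylated cytosines are not. At a single position the reads of 1 bull come from many sperm cells. An intermediate percentage can thus be a mixture of methylated and unmethylated copies. A thymine in a bull's own sequence would also be read as unmethylated, and sequence variants were not tested.

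All 6 animals were adult Holstein bulls and the tissue was sperm in each. H01 was also labelled low for sire calving ease. H02 was labelled low for gestation length and high for body depth, and H03 high for both gestation length and calving ease. L01 was labelled low for gestation length. L02 was labelled high for calving ease and low for body depth, and L03 high for both gestation length and body depth. Gestation length labels were thus balanced, with 1 high, 1 low and 1 unlabelled bull in each SCR group, whereas calving ease and body depth were not and cannot be told apart from the bulls that carry them. The other 12 bulls had no SCR label and entered no comparison between groups. The label sperm was not checked at imprinted genes, for which no gene positions in the files' build (UMD 3.1) were used here. Each animal gave 1 library, so that bulls were the replicates.

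The bulls differed in how much of the genome their files listed. H01 listed 2751759 autosomal positions, the fewest, and L03 5815867. H02 listed 8468684, L02 8689143, H03 11241684 and L01 13080245. Every listed position had 10 to 100 reads, and the mean coverage per bull was 12.7 to 13.3 reads. In a tested tile H01 contributed a median of 2 positions, L03 a median of 3 and each of the other 4 bulls a median of 4. At 10 reads a single bull's percentage moves in large steps, and the positions listed in all 6 bulls were the better covered ones, with a mean of 27.8 reads.

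The first question was whether sperm of high-SCR bulls carried more or less methylation in all. The main comparison used the 310795 positions listed in all 6 bulls. These were less methylated than all autosomal positions that a bull lists, which averaged 78.3% (H01) to 83.3% (L01). They therefore do not give the level or the shift of the genome as a whole. At the 310795 positions listed in all 6 bulls, mean methylation was 43.4% in H01, 43.5% in H02 and 43.1% in H03. It was 44.0% in L01, 43.9% in L02 and 45.4% in L03. The groups did not overlap, with 43.3% ± 0.234 in the high and 44.4% ± 0.837 in the low group (SD, n = 3 each), a difference of -1.12 points. The exact two-sided permutation test gave p = 0.1, the smallest value that 3 bulls against 3 allow. The direction turned to 1.58 points higher in the high group (exact permutation p = 0.4) when methylated reads were divided by all reads over the same positions, which weights positions by their depth. The bulls then had 34.5, 32.4 and 29.3% against 31.3, 30.3 and 29.8%, with the groups overlapping and H01 the highest. The groups also overlapped at positions of at most 30 reads (-0.801 points, exact permutation p = 0.3) and over all qualifying positions that a bull lists (-1.56 points, exact permutation p = 1). Over all qualifying positions the high bulls had 67.6, 75.6 and 75.8% and the low bulls 75.5, 75.2 and 72.9%. H02 and H03 thus lay above every low bull, and the negative sign came from H01. The values that follow are for the positions listed in all 6 bulls. Without L03 the difference was -0.638 points.

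The difference of the means was largest where sperm methylation is neither near 0 nor near complete. Positions were classed by the mean of the other 12 bulls, which took no part in the SCR contrast. At 70262 positions of intermediate methylation (20 to 80% in those 12) the high bulls had 42.8, 43.0 and 42.3% and the low bulls 43.5, 44.0 and 47.6%. That was a difference of -2.34 points, and L03 was the bull farthest from the rest. Without L03 it was -1.04 points. At 140564 positions under 20% the difference was -1.06 points, and at 92260 positions over 80% it was -0.323 points, or -0.0163 without L03, -0.0824 without H01 and -0.608 without L01. Over these classes and 4 classes of tiles by their number of listed positions, 7 tests in all, the smallest exact permutation p was 0.1 (Benjamini-Hochberg adjusted p = 0.35), and the difference was negative in all 7. Without L03 the differences in the 3 classes with the fewest listed positions shrank from -2.16, -1.15 and -0.815 to -0.893, -0.421 and -0.231 points, and without L01 they grew to -3.47, -2.07 and -1.54 points.

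Single positions gave no call. With limma fitted over all 2127894 positions, on log2 ratios of the reads of both states with 1 added to each, 0 positions (0%) passed an adjusted p of 0.05, and the smallest adjusted p was 0.935. At an unadjusted p under 0.05 there were 82671 positions, or 3.89%. A logistic test on reads, which leaves out the spread between animals, called 14122 of the 2127894. Restricted to the positions listed in all 6 bulls, limma called 1 position, on BTA1 at 108354620, which is named here because it was that one call. There H01 read 0%, H02 8.33% and H03 0%, against 100% in L01 and L02 and 90% in L03, with 10 to 12 reads per bull (limma adjusted p = 0.00632 over those positions). Among the bulls without an SCR label, 6 listed this position and ranged from 0 to 100%, with a median of 25.8%, so that the full range also occurred outside the contrast.

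At 25630 of the positions listed in all 6 bulls, 8.25% of them, every bull of one group lay above every bull of the other. Labels given at random would set 3 bulls wholly apart from the others with a probability of up to 0.1. Nothing is therefore read from the share. The high bulls were the lower group at 18112 and the higher at 7518. This excess is not separate from the lower mean of the high group at the same positions (-1.12 points, or -0.638 without L03). In 89 of the 25630 positions the group means differed by over 50 points, 48 with lower and 41 with higher methylation in the high group. Of the 534 bull values at these 89, 77.5% lay within 10 points of 0, 50 or 100%. The same share over all positions is not given here, and a part of sequence variants in these differences was not tested.

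The opposite strand of a CpG is read from other fragments of the same bull and gives a second look at each difference. A sequence variant that removes the CpG would be read as unmethylated on both strands. Like strands therefore do not set such a variant apart from methylation, and variants were not tested. Both strands were listed in all 6 bulls at 40528 CpGs. Across these CpGs, which share libraries and bulls and are not independent replicates, mean methylation of the strands correlated at r = 0.982 and the SCR difference at r = 0.154. Of 319 CpGs whose first strand differed by over 20 points between the groups, 242 (75.9%) differed in the same direction on the other strand. The median difference there was 6.78 points, against 22.4 points on the strand that chose them.

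The named positions were the largest differences with 10 to 30 reads in each bull, no overlap between groups and the other strand listed, 4 in each direction. The largest gain was on BTA12 at 76331320, where H01, H02 and H03 read 65.4, 72.2 and 46.7% and L01, L02 and L03 read 0, 0 and 37.5%. The other strand, at 76331321, read 58.3, 80 and 36.4% against 0, 0 and 33.3%. Both strands gave the same order of groups, and L03 was the low bull nearest to the high ones on each.

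The largest loss was on BTA7 at 15574736, with 10, 11.8 and 20% in the high bulls against 50, 46.2 and 90.9% in the low bulls. On its other strand the difference shrank from -48.4 to -24.0 points and kept the groups apart, from 12 to 20% in the high bulls and from 23.5 to 50% in the low. A loss on BTA9 at 7804688 read 13.3, 31.8 and 33.3% against 43.5, 72.7 and 81.8%, and -30.1 points on its other strand. There the groups overlapped on that other strand, with L02 at 40% between the high bulls. The remaining losses, on BTA7 at 15659195 and BTA5 at 103231047, differed by -41.6 and -40.3 points on the first strand but by only -7.70 and -6.45 points on the other. The gains at 21268051 and 21441097 on BTA3 and at 71236286 on BTA8 differed by 27.6 to 29.95 points, and by 17.98, 6.14 and 7.36 points on the other strand. The gain on BTA8 was 17.9 points without L02. In 8 of 8 named CpGs the other strand thus had the same sign, while in 6 of 8 the difference was smaller than 25 points there. The groups stayed apart on the other strand in 2 of 8, the largest gain and the largest loss. They met at the same value in the gain at 21268051 and overlapped in the other 5.

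Regions were tested next, by a logistic regression of methylated and unmethylated reads per tile. A tile was called a differentially methylated region (DMR) at a q under 0.01 and a difference of pooled methylation over 5 points. By this rule 2809 of 186426 tiles were DMRs (1.51%). Of these, 1636 (0.878% of tiles) had lower and 1173 (0.629%) higher methylation in high-SCR bulls. The median size of the difference in a DMR was 14.3 points, and 768 DMRs differed by over 20 points. The excess of losses did not hold without L03, when 1637 tiles were lower and 1725 higher. Without H01 more tiles could be tested and 4307 were called, and 3125 on the 186426 tiles tested with all 6 bulls.

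The logistic test takes every read as independent and ignores how bulls vary. The bulls' reads varied by more than counting error, in DMRs in particular, with a median overdispersion of 3.82 against 1.37 over all tiles. Each bull's reads were pooled over its own positions, so this measure mixes variation between bulls with unlike positions. The part of each was not tested. In the 1451 DMRs with positions listed in all 6 bulls, the median difference fell from 11.8 to 8.86 points over those positions. A test that compared the groups within each position and then combined the positions called 3235 tiles (1.74%), 2330 of them among the DMRs. With the bull as the unit, limma called 0 of 186426 tiles, the smallest adjusted p was 1, and 5637 tiles (3.02%) had an unadjusted p under 0.05. The DMRs are therefore differences between the reads of these 6 animals, and none was shown to exceed the spread between bulls.

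The groups did not overlap in 1169 DMRs (41.6%), against 7.89% of all tested tiles. The same contrast chose the DMRs, so nothing is read from that excess. Over positions listed in all 6 bulls, 1036 of the 1451 DMRs that held any (71.4%) still differed by over 5 points the same way, which is a description, since the same reads took part in the call. DMRs had a median methylation of 82.9%, and the other tested tiles 93.8%. By the classes from the other 12 bulls, 4.25% of intermediate tiles were DMRs (1169 of 27491), against 0.950% of tiles under 20% and 1.03% of those over 80%. Over the 4 classes by number of listed positions per tile, which depends on coverage as well as on the number of CpGs, the share called was 1.45 to 1.67%.

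The share of tiles called differed between chromosomes, from 0.700% on BTA20 to 2.97% on BTA14. BTA27 followed with 2.33%, and BTA6 had 1.93%.

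**Figure D1:**
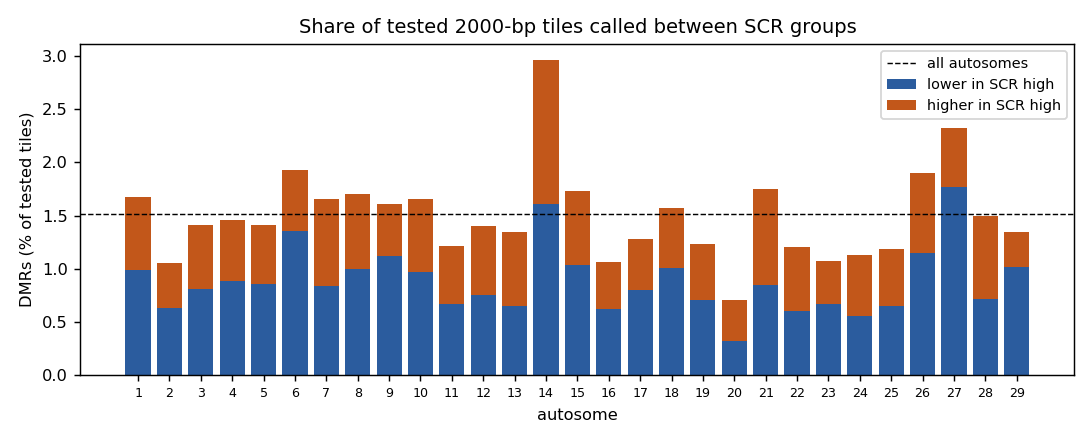
Share of tested tiles called as DMRs on each of the 29 autosomes, in percent of the tiles tested there, with DMRs lower (blue) and higher (orange) in high-SCR bulls stacked and the share over all autosomes (1.51%) as a dashed line. BTA14 at 2.97% and BTA27 at 2.33% stand highest, and on BTA27 93 of 122 DMRs were lower.

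Counted in 1-Mb windows, 14 of 2524 windows held 10 or more DMRs each. The number 10 was chosen after the values were seen, 6 further windows held 9, and all that follows on these windows is a description. The 14 windows held 314 DMRs, 11.2% of all, in 1.16% of the tested tiles, and 258 of the 314 were lower in high-SCR bulls (82.2%). In the same windows 167 of 283 were lower without L03 (59.0%), 171 of 206 without L02 and 403 of 446 without L01. They held 148 DMRs in 1857 tested tiles when positions over 30 reads were left out, and 207 in 1578 over positions listed in all 6 bulls. With all qualifying positions the 314 lay in 2159 tested tiles. In 12 of the 14, all DMRs or all but 1 went in the same direction. Outside them 2495 DMRs remained (1.35% of tiles), 55.2% of them lower, and the highest share left on a chromosome was 1.90%, on BTA26. BTA14 fell to 1.61%, BTA27 to 1.56% and BTA6 to 1.08%.

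Pooled, these windows were less methylated than the rest of the genome. Their tiles had a median methylation of 67.2%, against 93.7% in all other tiles, and 54.6% of them were intermediate in the other 12 bulls, against 14.3%. The windows on BTA10 and BTA23 were exceptions, with medians of 93.9 and 93.8% and 11.9 and 15.6% of tiles intermediate. On BTA23 this holds for the window as a whole but not for its DMRs. Their median level per bull was 25.5% (H02) to 46.5% (L03), at 38.1 reads per position against 22.6 over the window. Depth moved with them, and its part in the counts was tried only by leaving out positions over 30 reads. Mean coverage per position was over 19 reads in 9 of the 14 and reached 37.8, against 18.9 over tiles that were not DMRs.

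On BTA27 between 5000001 and 6000000, 43 of 195 tiles were DMRs and 42 of them were lower in high-SCR bulls. Over the 1274 positions listed in all 6 bulls there, H01, H02 and H03 had 49.5, 52.7 and 50.1% methylation. L01 had 49.9%, L02 62.5% and L03 59.4%. L01 thus lay among the high bulls, and the difference of -6.49 points came from L02 and L03. Without L02 the window held 16 DMRs and without L01 it held 87. It held 23 in 175 tiles when positions over 30 reads were left out and 24 in 166 tiles over positions listed in all 6 bulls.

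BTA14 held 3 of the windows, called BTA14 A, B and C here in the order of their position. In BTA14 A (1 to 1000000), 45 of 46 DMRs were higher in high-SCR bulls, the only one of the 14 windows with an excess of gains. Yet over 5847 positions listed in all 6 bulls the levels were 27.7, 32.7 and 31.3% against 28.5, 26.5 and 35.8%, and the difference was 0.292 points. L03 had the highest level, H01 lay between the low bulls, and the count was 99 without L03, 71 without H01 and 26 without L02. Coverage was 33.3 reads. Where positions over 30 reads were left out 279 tiles could be tested, against 395, and 4 DMRs were called, all of them higher. Over positions listed in all 6 bulls 42 of 383 tiles were called, all of them higher.

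BTA14 B (14000001 to 15000000) and BTA14 C (15000001 to 16000000) adjoin, and 29 of 30 and 34 of 35 of their DMRs were lower in high-SCR bulls. In BTA14 C the high bulls had 61.3, 55.4 and 55.0% and the low bulls 58.9, 63.1 and 61.7% over 1238 shared positions. H01 lay among the low bulls there, and 23 DMRs, 21 of them lower, were called without H03. Over positions listed in all 6 bulls BTA14 C held 28 DMRs, all of them lower. In BTA14 B the levels were 67.2, 64.4 and 60.9% against 62.1, 71.2 and 69.5%, and here L01 lay among the high bulls. Its count was 16 without L02, 19 without H03, 48 without L01 and 11 when positions over 30 reads were left out. Over positions listed in all 6 bulls BTA14 B held 20, all of them lower. The 12 bulls without an SCR label spanned 55.5 to 84.4% in BTA14 B and 52.6 to 80.2% in BTA14 C, over the positions that each of them lists.

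Losses also filled a window on BTA29 (5000001 to 6000000), with 29 of 29 DMRs lower. H02 alone was far down there, at 52.8%, against 59.7% in H01 and 62.1% in H03, and the low bulls had 59.7, 64.1 and 66.0%. Without H02 the window held 7 DMRs, without L02 or L03 16, without L01 44 and without H03 46. It held 16 when positions over 30 reads were left out and 23 over positions listed in all 6 bulls. On BTA6 the neighbouring windows BTA6 A (5000001 to 6000000) and BTA6 B (6000001 to 7000000) held 17 and 27 DMRs, all lower. They depended on L03, the highest bull in both, without which 2 and 4 DMRs were called. Without H02, the lowest bull in both, the counts were 4 and 11, and without L01 BTA6 A held 34. They were also the deepest of the losses, at 33.0 and 37.8 reads per position. When positions over 30 reads were left out, BTA6 A held 2 DMRs in 49 tested tiles, against 17 in 92. BTA6 B then held 0 in 67, against 27 in 126. Over positions listed in all 6 bulls BTA6 A held 19 DMRs in 89 tiles and BTA6 B 16 in 115.

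**Figure D2:**
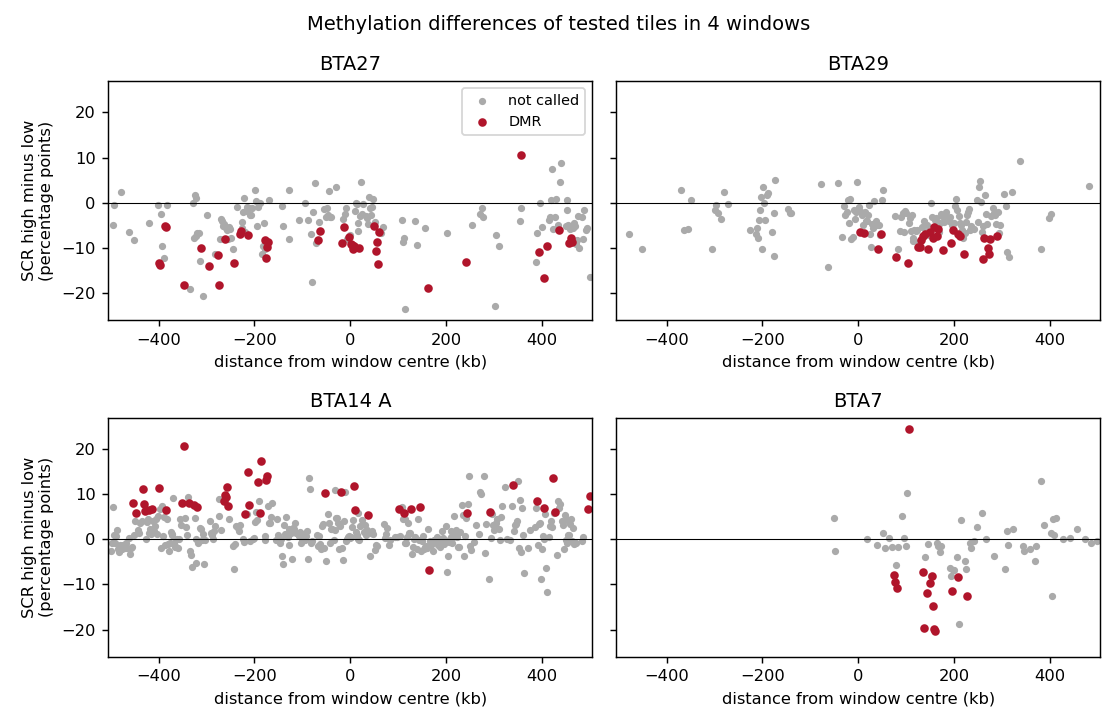
Difference in pooled methylation (SCR high minus low, percentage points) of every tested tile in 4 of the 1-Mb windows, against distance from the window's centre in kb, with DMRs in red and other tiles in grey. In BTA27 42 of 43 DMRs and in BTA29 29 of 29 lie below 0, in BTA14 A 45 of 46 lie above, and in BTA7 the losses sit close together.

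The window on BTA7 (15000001 to 16000000) had the largest difference of the 14. It held 15 DMRs in 74 tiles, 14 of them lower in high-SCR bulls, and the groups did not overlap in 12, beside 7.89% of all tested tiles and 41.6% of all DMRs. Over 299 positions listed in all 6 bulls, H01, H02 and H03 had 62.8, 63.7 and 58.8% methylation and L01, L02 and L03 had 66.7, 76.9 and 73.0%. The group means were 61.8% ± 2.58 and 72.2% ± 5.18, a difference of -10.4 points. Coverage was 16.6 reads, 13 DMRs were called when positions over 30 reads were left out, and between 8 (without L02) and 20 (without L01) when a bull was left out. Over positions listed in all 6 bulls 12 of 44 tiles were called, all of them lower. The unlabelled bulls ranged from 57.8 to 77.6% over the positions they list here.

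Within it lay a run of 4 neighbouring DMRs, from 15652001 to 15660000. It was tied in length with 7 other runs of 4 tiles and is described because its mean difference per tile was the largest of those 8. Pooled over those 8 kb, the high bulls had 63.9, 64.4 and 52.5% and the low bulls 67.0, 84.6 and 77.8%. L01 was close to the highest high bull, and L02 and L03 stood well above. The longest runs had 5 tiles each. On BTA14 from 236001 to 246000 the levels were 35.9, 54.6 and 49.1% against 36.7, 33.3 and 52.4%, with the groups overlapping. On BTA23 from 9838001 to 9848000 they were 26.5, 23.8 and 24.7% against 29.9, 26.7 and 40.3%, so that L03 was far from the other 5 bulls. Of all DMRs, 2567 stood alone and 242 fell into 105 runs of 2 tiles or more.

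In 2 windows coverage was under 13 reads per position. Beside their counts of DMRs without overlap stand 7.89% of all tested tiles and 41.6% of all DMRs, and nothing is read from the excess, since the same contrast chose them. On BTA10 (7000001 to 8000000) the groups did not overlap in 11 of 14 DMRs, of which 9 were lower and 5 higher in high-SCR bulls. One tile there, from 7972001 to 7974000, had 69.6, 65.8 and 60% in the high and 90.2, 90.9 and 95.7% in the low bulls. Another, from 7428001 to 7430000, went the opposite way, with 81.0, 80.2 and 84.5% against 60.9, 54.7 and 63.2%. Both tiles were picked after their values were seen. The window's mean was 90.9% ± 0.969 against 93.0% ± 0.912 over 88 shared positions. Pooled over the qualifying positions of the tested tiles the bulls had 89.6, 88.4 and 88.4% against 88.0, 89.1 and 88.4%. There the groups overlapped, and the high group had the higher mean. Without L01 the window held 7 DMRs. Over positions listed in all 6 bulls it held 1 in 50 tested tiles, against 14 in 159.

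On BTA4 (113000001 to 114000000) 12 of 14 DMRs were lower in high-SCR bulls and the groups did not overlap in 9, beside 41.6% of all DMRs and 7.89% of all tested tiles. In the tile from 113652001 to 113654000, also picked after its values were seen, the high bulls had 76.3, 62.7 and 79.3% and the low bulls 99.1, 97.6 and 96.6%. The low bulls in this tile were close together near full methylation and the high bulls were spread below them. H02 was the lowest bull in that tile, and the window held 6 DMRs without H02. Over positions listed in all 6 bulls, 60 in this window, 0 of 38 tested tiles were called, against 14 of 87.

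The other windows lay on BTA15 (83000001 to 84000000), BTA5 (103000001 to 104000000), BTA8 (108000001 to 109000000) and BTA23 (9000001 to 10000000). They held 14, 10, 10 and 10 DMRs, all of them lower in high-SCR bulls. On BTA5 the groups did not overlap over 379 shared positions, with 39.7, 42.4 and 41.7% against 43.2, 45.3 and 45.8%. Pooled over the qualifying positions of the tested tiles the levels were 37.1, 46.1 and 42.9% against 43.9, 41.2 and 38.0%. There the groups overlapped, and the high group had the higher mean. On BTA5 6 DMRs were called without H02, 6 without L02 and 6 over positions listed in all 6 bulls, where 78 tiles were tested against 120. On BTA8 the groups overlapped, and 1 DMR was called without H03 and 1 without L02, while 20 were called without L01 and 29 without H02. Over positions listed in all 6 bulls BTA8 held 0 in 55 tested tiles, against 10 in 160. On BTA15 they overlapped too, and 8 DMRs were called without L02 and 9 without H03, against 24 without H01 and 28 without L01. Over positions listed in all 6 bulls BTA15 held 7 in 51 tested tiles, against 14 in 94. On BTA23 3 were called without L03, of which 1 was lower and 2 were higher, and none when positions over 30 reads were left out. Over positions listed in all 6 bulls BTA23 held 9, of which 8 were lower.

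**Figure D3:**
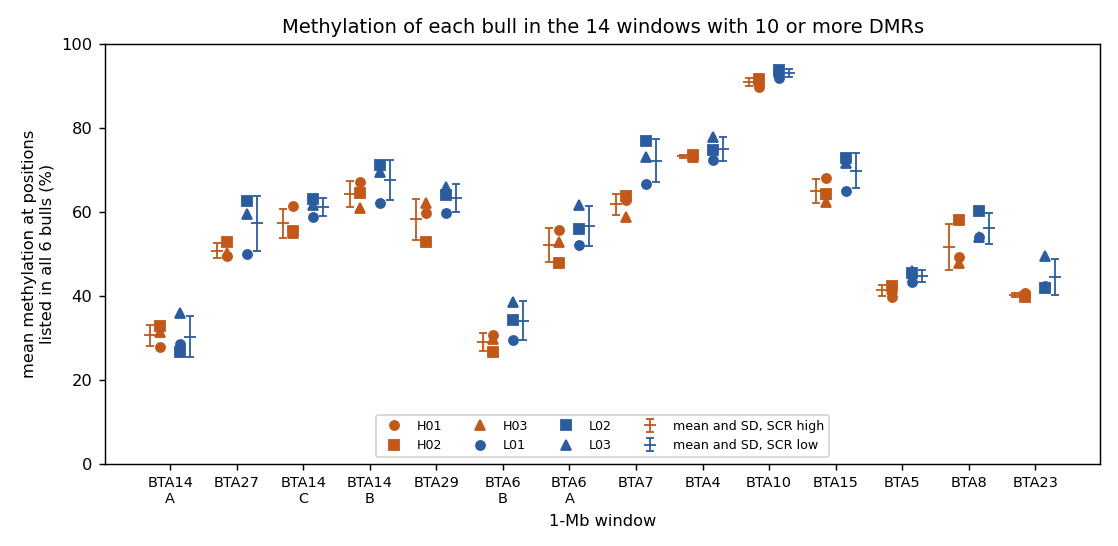
Mean methylation (percent) of each SCR bull at positions listed in all 6 bulls, in each of the 14 windows with 10 or more DMRs, with the group mean and SD (n = 3) beside the points (orange high, blue low). Over these positions the groups stay apart in 4 windows, on BTA7, BTA10, BTA5 and BTA23, and by most on BTA7 (61.8 against 72.2%).

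Single tiles were named by rule, as the 8 largest losses and 8 largest gains among DMRs with at least 5 positions listed in all 6 bulls and no overlap between groups over them. Of the 522 DMRs with 5 such positions, 140 had groups that did not overlap, 120 losses and 20 gains. Over all 8380 tested tiles with 5 such positions the share was 12.6%. The 16 tiles are therefore the ends of a selected list, and limma gave each an adjusted p of 1.

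The largest loss lay on BTA22 from 21160001 to 21162000. H01 had 39.5%, H02 47.1% and H03 57.6%, against 78.7% in L01, 73.3% in L02 and 67.7% in L03, a difference of -25.2 points (48.1% ± 9.04 against 73.2% ± 5.50). All 5 of its shared positions were lower in the high group. The 10 unlabelled bulls with values there ranged from 42.1 to 85.5% around a median of 60.3%, and of the SCR bulls H01 alone lay outside that range.

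Losses 2, 3, 6 and 8 fell in windows described above, on BTA27, BTA7 (2 tiles) and BTA14 B. Loss 2, on BTA27 from 5222001 to 5224000, was -24.95 points over its 5 shared positions and -11.7 points pooled over all qualifying positions. Loss 6, on BTA7 from 15658001 to 15660000, had the most shared positions, 12 of 12 in the same direction. Its levels were 56.0, 55.8 and 34.6% against 57.0, 82.0 and 70.3%, so that L01 was barely above H01. Loss 8, on BTA14 from 14500001 to 14502000, had 63.9, 55.4 and 68.2% against 82.6, 85.2 and 78.2%, with 10 of 10 positions lower. There the low bulls were close together, and all 6 values lay within the 53.3 to 91.3% of the unlabelled bulls.

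The other losses were on BTA1 from 112424001 to 112426000, and on BTA26 from 9350001 to 9352000 and from 2522001 to 2524000. On BTA1 the low bulls had 67.8, 72.4 and 71.1% and the high bulls 38.1, 46.4 and 61.8%. This was the one loss in which the low group lay above all of the 6 unlabelled bulls with values (41.5 to 60%). H03, a high bull, lay above them as well, and H01 lay below them. On BTA26 the differences were -21.0 and -19.97 points. In the first H01 at 61.8% was barely below L01 at 62.9%, and in the second all 7 shared positions were lower in the high group.

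The gains ran from 9.83 to 22.7 points. The largest, on BTA15 from 31798001 to 31800000, was 22.7 points, with 76.6, 94.9 and 87.8% in the high and 71.8, 70.4 and 49.0% in the low bulls. That size and rank hold for the 5 shared positions, since pooled over all qualifying positions the tile differed by 13.4 points, less than gains 3, 4, 7 and 2 (18.8, 15.03, 14.6 and 14.02 points). Gain 2, on BTA21 from 14924001 to 14926000, had 98.3, 98.2 and 98.0% in the high bulls, which hardly differed from each other. The low bulls there had 92.7, 84.0 and 63.0%, and L03 was farthest from the high group in this difference of 18.3 points. Gain 3, on BTA21 from 35190001 to 35192000, was the one named tile of low methylation, with 14.6, 22.7 and 29.3% in the high bulls against 0, 2.97 and 11.8% in the low.

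Gain 4, on BTA23 from 31006001 to 31008000, had 47.1, 52.6 and 59.1% against 41.1, 33.7 and 41.2%. Gains 5 and 7 were on BTA27 from 31574001 to 31576000 (12.6 points) and from 42860001 to 42862000 (12.2 points), and gain 6 on BTA3 from 109442001 to 109444000 (12.2 points). Gain 8, on BTA14 from 162001 to 164000 in BTA14 A, was 9.83 points, and there H03 at 46.4% was barely above L03 at 45.5%. The 16 tiles kept their direction whichever bull was left out, which the choice of tiles without overlap fixes, but sizes moved by over 1.5 times in 7 tiles. Without L03 gain 2 was 9.82 and gain 6 6.26 points. Without L02 loss 2 was -15.6, gain 7 7.77 and gain 8 6.19 points, without H03 loss 6 was -13.9 and gain 5 7.55 points, and without H01 gain 8 was 5.75 points.

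**Figure D4:**
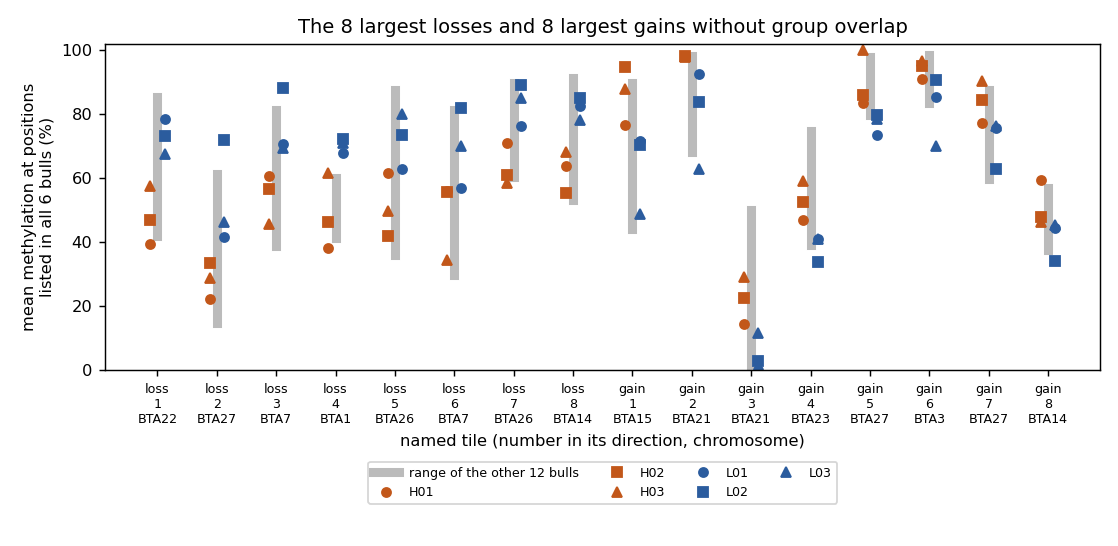
Mean methylation (percent) of each SCR bull over positions listed in all 6 bulls in the 8 named losses and 8 named gains (orange high, blue low, 1 symbol per bull), with the range of the unlabelled bulls that had values as a grey bar. The groups do not overlap in any tile by rule, and 73 of the 96 bull values lie within the grey range.

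Genes could be placed in only 1 set, the 25 genes that the study fine-mapped for gestation length and for which it gave UMD 3.1 coordinates. They were not chosen for SCR. With 2000 bp on both sides, 18 of the 25 held a tested tile, 149 tiles in all, and 1 tile was a DMR (0.671%, against 1.51% of all tiles). The median tile difference was -0.226 points in these genes and -0.197 points over all tested tiles, and 12.1% of their tiles differed by over 5 points, against 23.0% of all.

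The 1 DMR lay in WWP2, which encodes an E3 ubiquitin ligase, on BTA18 from 37020001 to 37022000. Pooled methylation there was 87.5, 98.2 and 95.4% in the high bulls against 93.4, 80.8 and 91.6% in the low, 7.20 points higher in the high group. The groups overlapped, H01 contributed only 40 reads at 4 positions, and limma gave an unadjusted p of 0.219 (adjusted p of 1). Over the 4 positions listed in all 6 bulls the direction turned, with -0.858 points. Leaving out H02 or L02 removed the call, and leaving out H03 or L03 added a DMR in LOC107131356, a second gene of the set. WWP2 held 2 DMRs without H01 and 2 without L01.

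None of the other genes held a DMR with all 6 bulls. NRG2, a growth factor of the neuregulin family, had 21 tested tiles with differences from -7.64 to 6.66 points. MYH10, a non-muscle myosin heavy chain, had 11 tiles from -7.35 to 4.02 points. DNAH2, a dynein heavy chain of cilia and flagella, had 8 tiles from -8.75 to 2.78 points, and its pooled methylation was 89.5, 91.6 and 93.2% in the high against 92.5, 92.3 and 92.5% in the low bulls. ZNF613, a zinc finger gene, had 1 tested tile with a difference of -2.26 points. DGAT1, BOP1, FBXL6, SLC52A2, MROH1, ADCK5 and SLC39A4 on BTA14 had no tested tile, so that no difference there could be measured.

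Pairs of bulls differed by like amounts within and between SCR groups. At the positions listed in all 6, the mean absolute difference between bulls was 7.40 to 8.18 points for the 6 pairs within a group (median 7.54) and 7.37 to 8.19 points for the 9 pairs between groups (median 7.59). Every pair with H01 differed by over 8 points. H01 had the lowest depth at these positions, a mean of 18.7 reads against 25.3 (H02) to 31.4 (L01) in the other bulls. How much of any pair's difference is counting error was not tested. Without H01 the ranges were 7.40 to 7.57 points within and 7.37 to 7.68 points between groups. Pearson correlations of methylation across positions were 0.952 to 0.959 within and 0.953 to 0.960 between groups, over 310795 positions that all pairs share.

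Differences between bulls at nearby positions were weakly correlated, whether or not the bulls shared an SCR label. For positions 2 to 10 bp apart, the differences of 2 bulls correlated across positions at a median r of 0.226 for pairs within a group and 0.216 for pairs between groups, and the SCR difference at 0.207. For positions 51 to 100 bp apart these were 0.0916, 0.0827 and 0.0699, and at 1001 to 2000 bp 0.0528, 0.0491 and 0.0306. At 1 bp they were 0.196, 0.191 and 0.147, lower than at 2 to 10 bp. Positions close together can lie on the same reads, and the part of shared reads was not tested. The SCR difference was no more extended along the genome than that of a pair of bulls with the same label. These are descriptions over 44261 (1 bp), 120656, 550188 and 2544914 pairs of positions, which share bulls and libraries.

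**Figure D5:**
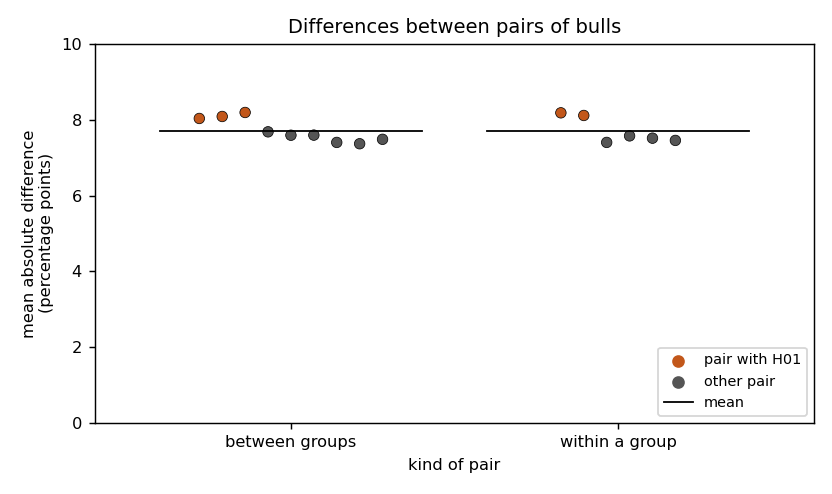
Mean absolute difference in methylation (percentage points) at positions listed in all 6 bulls, for the 9 pairs of bulls between SCR groups and the 6 pairs within a group, with pairs that include H01 in orange and the mean of each kind as a line. Both kinds of pair span about the same range, 7.37 to 8.19 and 7.40 to 8.18 points, and the pairs with H01 are the highest of each.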

How the data were processed

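Whole-genome bisulfite sequencing of sperm DNA was analysed from 1 deposited file per bull. The authors trimmed, aligned and called methylation with tools that the submitters' processing notes list as FastQC 0.11.2, Trim Galore 0.4.0, Bowtie2 and Bismark 0.14.5 on UMD 3.1, and kept cytosines of CpGs with at least 10 reads. The deposited values were counts (read coverage per position) and the percent of reads methylated, from which methylated reads were recovered as whole numbers. For the 12 other bulls only the deposited percent was used.

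Tiles of 2000 bp were tested by logistic regression with a likelihood ratio test in Python 3.11.15 (SciPy 1.17.1), with q-values from a simplified sliding linear model (SLIM), q under 0.01 and a difference over 5 points. Positions and, as an alternative, tiles were tested with limma 3.58.1 in R 4.3.3 on log2 read ratios with 1 read added. Group means were compared with exact permutation tests. Named tiles were the 8 largest losses and gains among DMRs with 5 positions in all 6 bulls and no overlap between groups, counting adjacent tiles once. Named positions were the 4 largest in each direction with 10 to 30 reads, no overlap and the other strand listed. Named runs were the 3 longest, with ties broken by the mean size of the tile differences, and genes of the 25 were named where they held a DMR. Further genes of the set were added after their values were seen.

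The members, lists and rules were chosen with earlier results of these data known. Scripts were tested on simulated data. Other filters, tests, blocks and left-out bulls were tried. The 25 gene IDs all matched the RefSeq table of another assembly (ARS-UCD2.0), used for names only. No genome of the files' build was used here, so no sequence is shown, and other genes and imprinted genes were not analysed.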

Additional observations from a re-analysis of the deposited data

How the results depend on the processing

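The count of DMRs depended on the positions used. It was 2809 as reported (1.51% of tiles tested), 1687 where each bull had to contribute 3 positions or more (3.71%), 948 over positions listed in all 6 bulls (1.31%), 47094 over every autosomal position a bull lists (8.64%), 685 with each position counted as 10 reads (0.367%) and 715 with at least 15 reads (8.98%). Tiles tested differed between these settings, so that a lower count can be a higher share. The F test and limma called 0, with 2409 and 4614 tiles over 5 points at an unadjusted p under 0.05. In simulated data the known changes were larger than the median DMR difference of 14.3 points and lay in well-covered tiles. There the F test called none of the changed tiles and limma only part of them. The 0 of either test therefore does not show that the DMRs lie within the spread between bulls. Leaving out a bull gave 2855 to 4307 DMRs, the highest without H01, where more tiles could be tested (1.46% of them). On the tiles tested with all 6 bulls the counts ran from 2746 without H02 to 3627 without L01, with 3125 without H01. The share of DMRs lower in high-SCR bulls was 58.2% as reported, 74.97% with at least 15 reads, 67.3% without L01 and 48.7% without L03, so that the excess of losses did not hold without L03. The cause was not tested. Position calls were 0 as reported, 1 over positions in all 6 bulls, 2 with at least 15 reads (BTA7 at 56084485 and BTA18 at 9618287, in both of which H01, left out there for having under 15 reads, lay with the low bulls) and 14122 with the logistic test and Benjamini-Hochberg adjustment, which has no spread between bulls. Among the settings tried, the mean difference per bull was reversed by total reads (1.58 points). Over all qualifying positions that a bull lists it was negative only through H01. The fine-mapped genes with a DMR were 1 as reported, 0 over positions in all 6 bulls and 0 to 2 when a bull was left out. The second gene, LOC107131356, appeared without H03 and without L03.

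Replicate numbers are shared by the groups. Deviations of same-numbered bulls correlated at 0.0264, 0.0116 and -0.00176, and those of the other pairs between groups at -0.0353 to 0.0245. Values this small do not settle whether the numbers pair bulls. With the replicate block the DMRs were 3148, and 1 position was called among those in all 6 bulls. With the gestation length class as the block they were 3099 and 1. Of the 14 windows, those on BTA8 and BTA10 fell under 10 DMRs with a block: BTA8 from 10 to 7 with the replicate block and to 5 with the gestation length class, and BTA10 from 14 to 9 with the replicate block. The windows were also counted at a shift of 0.5 Mb, chosen after the data were seen like the other alternatives for windows, and 18 then held 10 or more DMRs. Depth limits all of this: at 10 to 13 reads a position resolves steps of several points, and 3 bulls per group cannot give an exact permutation p under 0.1.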

Other observations

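The 12 bulls without an SCR label listed 4509705 to 21784160 autosomal positions, and their mean methylation over their own positions was 79.3 to 85.3%. In the BTA7 window they ranged from 57.8 to 77.6% with a median of 68.6%, in the BTA27 window from 41.3 to 57.5% with a median of 53.7%, and in the BTA29 window from 51.9 to 65.7% with a median of 59.1%. In BTA14 B the median was 69.0% and in BTA14 C 67.2%. At the position of the largest gain, on BTA12 at 76331320, 11 of them ranged from 0 to 80% with a median of 50%. These values are over the qualifying positions that each bull lists and are given without a comparison.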
